A study of Homo sapiens with 6 samples.

Results

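The leader, or 5′ UTR, is the stretch of an mRNA between its cap and its start codon, and it is the stretch that small ribosomal subunits travel before translation begins. Leader footprints were described for every gene with at least 20 leader counts in 2 libraries together, which gave 2407 leaders out of 9675 genes in the table (24.9%). Of the other genes, 5625 had no leader count in either library and 1643 had 1 to 19. Members were chosen by their summed leader counts, which also enter every ratio given here, so the ratios are descriptions. The leaders with exactly 20 counts (35 genes) had a median log2 ratio of 1.69, and the 39 genes just outside the minimum, with 19 counts, had 2.05. Of the 2407 leaders, 2380 belong to an identifier with a gene symbol, and 2356 are protein coding in RefSeq.

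The cells were HEK293T, a human embryonic kidney line, grown for 48 h at 37 °C and fixed with 0.3% formaldehyde for 5 min, which crosslinks ribosomal complexes to RNA. After RNase I digestion, 40S and 80S complexes were separated. The series holds 6 libraries, of which 2 are used here: unselected 40S 1, taken without antibody, and eIF3b-bound 40S 1, pulled down with a goat polyclonal antibody against eIF3b. Both come from the same line with no other treatment, and 1 library stands on each side, so no test of the difference was possible and the 95% intervals cover counting error only. Whether both were made from a single culture is not stated in the labels. The eIF3b-bound library held 947733 footprint counts and 40S 1 held 834172. Of the markers looked up, KRT8, an epithelial keratin of this line, had 267 and 100 counts over all areas, NEFM, a neurofilament protein, had 15 and 50, CD3E and HBB, markers of blood cells, had 0 in both libraries, and MYH6, a heart myosin, had 5 and 2.

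In cap-dependent initiation, a 40S subunit carrying initiation factors and the initiator tRNA is loaded near the cap and scans the leader until it meets a start codon. eIF3 is a large factor of many subunits that binds the 40S subunit and helps to load it on mRNA, and eIF3b is one of its core subunits. An unselected 40S fraction also holds subunits at stop codons and in 3′ UTRs. Leaders differ in how they start: mRNAs for ribosomal proteins and several translation factors begin with a C followed by pyrimidines, the 5′ terminal oligopyrimidine (TOP) tract.

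The first 20 bases from the RefSeq start are shown for 7 leaders that mark the range of the data, with the unbroken run of pyrimidines from the first base in capitals (GRCh38.p14, transcript strand). PTMA and HSPA1A are among the fullest leaders of both libraries, RPSA and RPS12 are TOP leaders with low ratios, and among leaders with at least 50 summed counts SLC29A4 and AQP3 have the lowest ratios and SEC24C the highest.
PTMA, chr2:231708525-231708544 (+): CCCCCactggctgctctgaa
HSPA1A, chr6:31815543-31815562 (+): aacggctagcctgaggagct
RPSA, chr3:39406720-39406739 (+): CTTTTCCgtgctacctgcag
RPS12, chr6:132814569-132814588 (+): CTCTTTCCCTgccgccgccg
SLC29A4, chr7:5282943-5282962 (+): Tgtgctcgtcgccgcgctcg
AQP3, chr9:33447574-33447593 (-): gctcgctgcgccaccgcctc
SEC24C, chr10:73744372-73744391 (+): ggaaccggaagtggagcctg

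Almost every measured leader was higher in the eIF3b-bound library. Together the 2407 leaders held 470858 counts there, 49.7% of the library, and 89118 counts in 40S 1, 10.7% of that library, a 4.65-fold difference in share. A leader's ratio is the log2 of its CPM (footprints scaled to the library total over all areas) in eIF3b-bound 40S 1 over 40S 1, with 0.5 added to each count. It had a median of 2.27 (4.83-fold), quartiles of 1.70 and 2.82, and 5th and 95th percentiles of 0.66 and 4.10. At least 2-fold higher were 2198 leaders (91.3%), against 38.5% of all areas of all genes with at least 20 counts. A further 168 were higher by less, and 41 were not higher (1.7%, against 46.1% of all areas). The counting interval lay wholly above equal CPM for 2209 leaders (91.8%, against 41.7% of all areas), wholly below it for 15 (0.623%, against 34.1%), and held it for 183. These ratios compare shares of whole libraries: scaled to leader footprints alone, which centres the leaders by construction, 1116 were not higher and 378 were at least 2-fold higher.

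**Figure D1:**
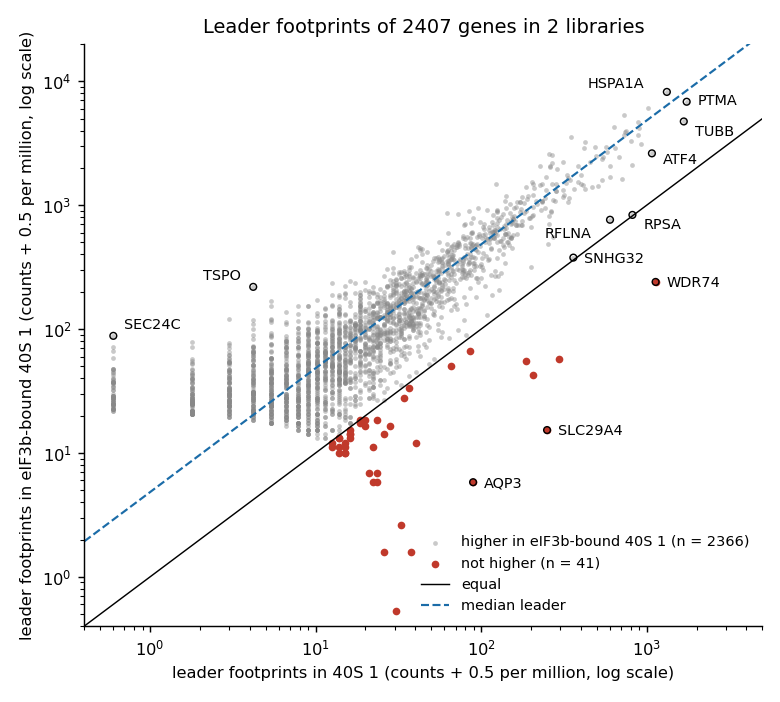
Leader footprints of the 2407 genes in 40S 1 (x axis) and in eIF3b-bound 40S 1 (y axis), both as CPM with 0.5 added to each count, on log scales, with 1 point per leader. Most points lie near the dashed line of the median leader, at a log2 ratio of 2.27, and the 41 leaders that were not higher lie on or below the solid line of equal CPM, among them WDR74, SLC29A4 and AQP3.

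Leaders stood apart from the other areas of the same genes. Among member genes with at least 20 counts in the area, the 1006 start codon areas had a median log2 ratio of 1.23, the 1767 coding sequences -0.77, the 125 stop codon areas -1.30 and the 1710 3′ UTRs -1.56. The leader lay above the start codon area of its own gene in 829 of 1006 genes (82.4%), above the coding sequence in 1724 of 1767 (97.6%) and above the 3′ UTR in 1671 of 1710 (97.7%). Where leader, start codon and coding sequence were all measured, in 967 genes, 731 (75.6%) had them in that descending order. Members were chosen by summed leader counts, most of them eIF3b-bound, which favours leaders high in that library. The within-gene comparisons therefore hold for members only. Over all genes with at least 20 counts in the area, members or not, the medians were 1.22 for start codons, -0.64 for coding sequences and -1.53 for 3′ UTRs. As measured, leader ratios had almost no correlation with ratios elsewhere in the gene. Across genes, Pearson's r with the leader ratio was 0.03 for start codons (n = 1006), -0.04 for coding sequences (n = 1767) and 0.03 for 3′ UTRs (n = 1710). Counting error weakens such correlations: for the leader ratio it had a root mean square of 0.62, against an SD of 1.13. All these values are descriptions across genes that share both libraries and their totals.

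**Figure D2:**
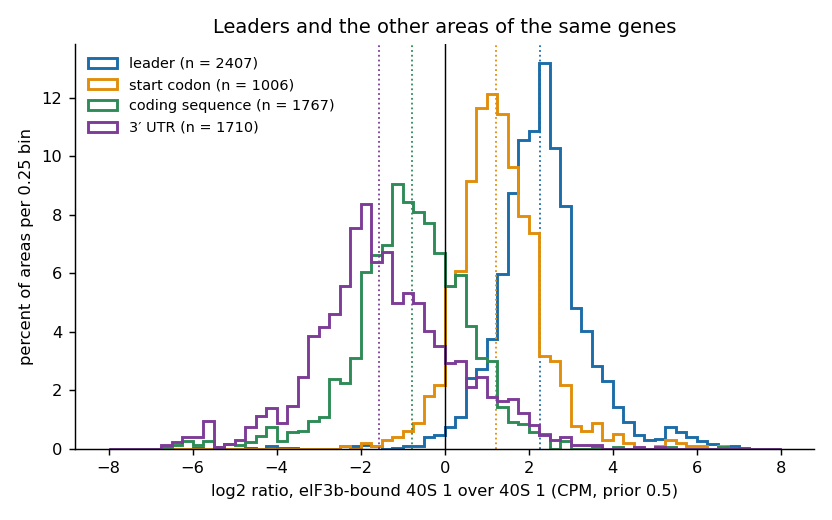
Distribution of log2 ratios (x axis, eIF3b-bound 40S 1 over 40S 1) for leaders and for the start codon areas, coding sequences and 3′ UTRs of the same genes, as the percent of areas in each 0.25 bin (y axis). Dotted lines mark the medians, which run from 2.27 for leaders over 1.23 and -0.77 to -1.56 for 3′ UTRs.

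Within member genes, by the median, the leader held most eIF3b-bound footprints and a minor part of unselected 40S footprints. Members were chosen by summed leader counts, 470858 of them eIF3b-bound and 89118 in 40S 1. That choice favours genes with a high leader share in the eIF3b-bound library, so the shares below hold for members only. In the 2166 member genes that reached 20 counts in both libraries, the leader took a median of 61.6% of the gene's eIF3b-bound footprints (quartiles 43.4 and 77.6%) and 16.7% of its 40S 1 footprints (7.77 and 29.7%). This share was higher in the eIF3b-bound library in 2139 of these genes (98.8%). In EIF1AX, an initiation factor of the scanning complex, it was 84.7% against 44.5%, and in EIF5, which triggers GTP hydrolysis at the start codon, 87.6% against 35.1%. The 27 genes in which it was not higher include RFLNA, a filamin regulator, whose counts in both libraries all fell in the leader (722 and 500), and ID3, an inhibitor of DNA binding, with 36.65% against 36.7%. LSM10, a component of the histone pre-mRNA processing complex, had 60.4% against 63.1%.

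Leader footprints were unevenly spread over genes, to nearly the same degree in both libraries. The single fullest leader held 1.62% of eIF3b-bound and 1.58% of 40S 1 leader footprints. The 10 fullest leaders held 10.3% of the leader footprints of the eIF3b-bound library (exact Clopper-Pearson interval 10.2 to 10.4%) and the 10 fullest of 40S 1 held 10.5% (10.3 to 10.7%). The 100 fullest held 40.2% and 40.8%. Of the 2407 leaders, 168 eIF3b-bound and 167 unselected ones were enough to reach 50% of all leader footprints. As shares of whole libraries the 10 fullest held 5.22% and 1.15%. Counts were not scaled to leader length, so a full leader may be a long one.

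**Figure D3:**
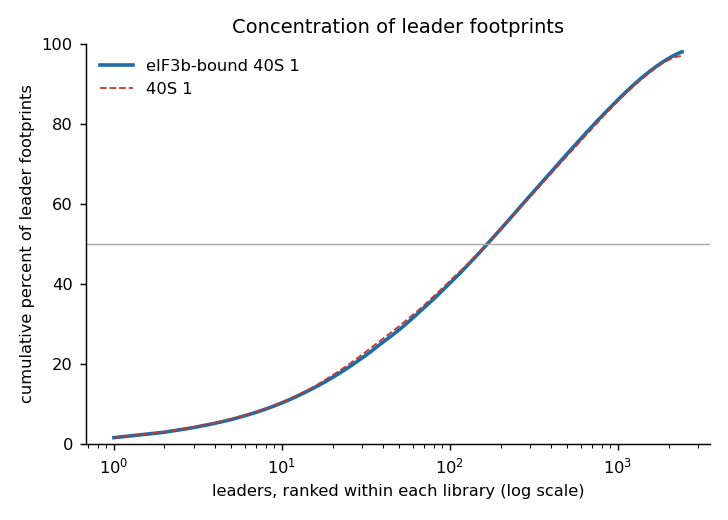
Cumulative percent of all leader footprints (y axis) held by leaders ranked by their counts within each library (x axis, log scale). The curves of eIF3b-bound 40S 1 and 40S 1 nearly coincide, reaching 10.3 and 10.5% at 10 leaders and 40.2 and 40.8% at 100.

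The fullest leaders were largely the same ones: 6 of the 10 fullest and 81 of the 100 fullest were shared. HSPA1A, the inducible Hsp70 chaperone, was first in the eIF3b-bound library with 7775 leader counts, against 1103 for unselected 40S 1 (log2 ratio 2.63, interval 2.54 to 2.73). PTMA, which encodes prothymosin alpha, was first in 40S 1 with 1453 counts and second in the eIF3b-bound library with 6477 (1.97, interval 1.89 to 2.06). Both thus held more of the eIF3b-bound library, HSPA1A above the median leader and PTMA below it. The near-identical copy HSPA1B had 5718 and 844 counts, and reads of this pair can be shared between them.

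The others among the 10 fullest eIF3b-bound leaders had log2 ratios from 1.50 to 2.87. EIF5A, a translation factor that carries hypusine, had 5051 eIF3b-bound and 609 unselected counts (2.87, interval 2.75 to 2.99). TUBB, a beta-tubulin, had 4491 and 1396 (1.50, interval 1.41 to 1.59). These are the highest and the lowest ratio of the 10, and were picked as such. UBB, a polyubiquitin gene, had 4466 and 735 counts (2.42). ACTB, the cytoskeletal beta-actin, had 4081 and 532 (2.75). ENO1, a glycolytic enzyme, had 3764 and 622 (2.41), and SUMO2, a ubiquitin-like modifier, had 3680 and 617 (2.39). ENSG00000272196, which has no symbol in the gene table, had 4010 and 751 (2.23).

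Of the 10 fullest 40S 1 leaders, 4 were outside the 10 fullest eIF3b-bound ones. All 4 had a ratio below the median leader, which the choice fixes in advance. A leader with at least 735 counts in 40S 1 and no more than 3680 eIF3b-bound counts must lie below it. WDR74, a ribosome biogenesis factor, had the place of rank 4 in 40S 1 with 943 counts, and rank 439 among eIF3b-bound leaders with 227. ATF4, the transcription factor of the integrated stress response, whose leader holds upstream open reading frames, had 896 unselected and 2482 eIF3b-bound counts (1.29, interval 1.18 to 1.40). HSP90AB1, a cytosolic Hsp90, had 770 and 2963, in the same order (1.76), and ACTG1, gamma-actin, 741 and 3489 (2.05). ATF4 had 60.4% of its 40S 1 footprints and 92.5% of its eIF3b-bound footprints in the leader.

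Among the members, the spread was larger than counting error at every count level, and the median ratio depended little on that level. The medians were 2.10 for 798 leaders with 20 to 49 summed counts, 2.25 for 573 with 50 to 99, 2.31 for 452 with 100 to under 200, 2.38 for 347 with 200 to under 500, and 2.33 for 237 with 500 or more. The highest class thus lay 0.23 above the lowest. The interquartile range narrowed over the same classes from 1.76 to 1.13, 1.01, 0.76 and 0.66. Counting error alone would give a root mean square of 0.91, 0.56, 0.37, 0.25 and 0.14, against observed SDs of 1.52, 1.05, 0.81, 0.82 and 0.60. The share of leaders at least 2-fold away from the median leader was 45.1% in the lowest class and 5.91% in the highest. The share whose interval excluded the median leader went the other way, from 22.4% to 57.8%. By quartiles of the counts in the other 4 areas, which do not enter the ratio, the medians were 2.14, 2.26, 2.35 and 2.30. With 2 instead of 0.5 added to each count, the lowest class lay 0.51 below the highest. Below the minimum the ratio was lower: the 1643 genes with 1 to 19 leader counts had a pooled log2 ratio of 1.58. The members pooled had 2.22.

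**Figure D4:**
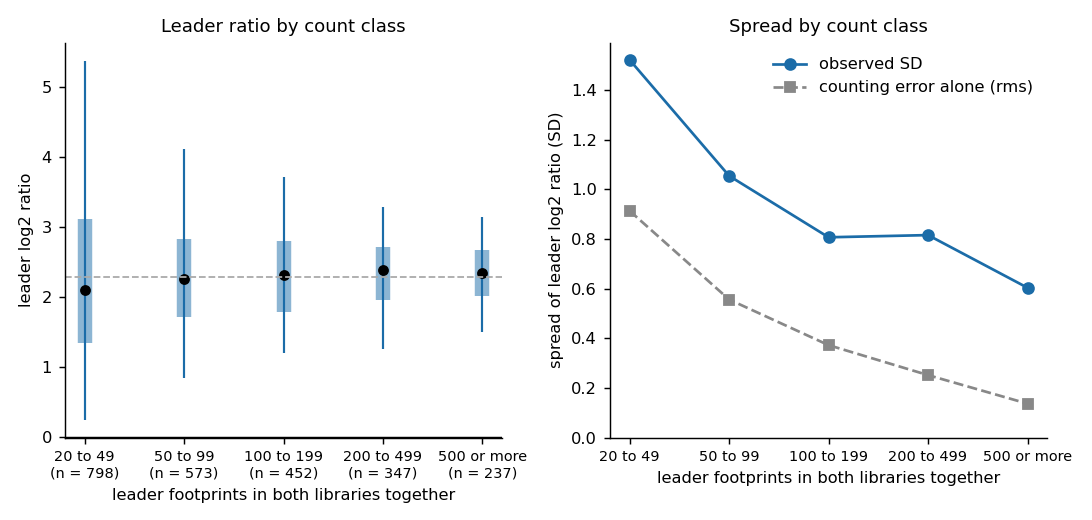
Left, leader log2 ratio (y axis) in classes of summed leader counts (x axis), with the median as a point, the quartiles as a thick bar and the 5th to 95th percentile as a thin line. Right, the observed SD of the ratio in each class beside the spread from counting error alone; the SD declines from 1.52 to 0.60 and lies above the counting error in every class.

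Among the 237 best measured leaders, with 500 or more counts, 232 were at least 2-fold higher in the eIF3b-bound library and 5 were not. The 5 below 2-fold, named after their values were seen, were WDR74 (-2.24), RPSA (0.03, interval -0.12 to 0.18), SNHG32 (0.07, interval -0.16 to 0.29), RFLNA (0.35, interval 0.18 to 0.51) and BOLA2-SMG1P6 (0.93, interval 0.70 to 1.18). RPSA, a protein of the small ribosomal subunit, had 790 eIF3b-bound and 683 unselected leader counts, and SNHG32, a host gene of small nucleolar RNAs, 357 and 300. At the upper end of this class, also named after their values were seen, stood TRIM28, a transcriptional corepressor, with 812 and 51 counts (3.80, interval 3.40 to 4.25) and MYBL2, a cell cycle transcription factor, with 1404 and 102 (3.59, interval 3.31 to 3.90). ANP32B, a histone chaperone, had 797 and 60 (3.54), EIF4A3, the helicase of the exon junction complex, 849 and 70 (3.41), and HMGN2, a nucleosome-binding protein, 3370 and 290 (3.35).

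The highest ratios among the 1609 leaders with at least 50 summed counts rested on few or no counts in 40S 1. SEC24C, a subunit of the COPII vesicle coat, had 83 leader counts against 0 and was at least 24.4-fold higher, with 3 counts taken as the limit for a library at 0. By the same limit RPRML (68 against 0) was at least 19.95-fold, TMEM200A (63 against 0) at least 18.5-fold and SMPD2, a sphingomyelinase (55 against 0), at least 16.1-fold higher. All 4 are lower bounds by that limit, and the lower ends of the wider 95% counting intervals were 19.4-, 15.8-, 14.6- and 12.7-fold. TSPO, a protein of the outer mitochondrial membrane, had 207 counts against 3 (60.7-fold, interval 20.5 to 297-fold). AHCY, which hydrolyses S-adenosylhomocysteine, had 159 against 4 (35-fold, interval 13.4 to 130-fold), and PAIP2B, which binds the poly(A)-binding protein, 114 against 2 (50.2-fold, interval 13.6 to 419-fold). OSTF1 had 74 counts, TIFA, a signalling adaptor, 68 and FBXO38, an F-box protein, 54, each against 1. In all, 60 leaders had 0 counts in 40S 1, with 20 to 83 in the eIF3b-bound library, and 269 had 1 to 3. Of those 60, 56 lay in the class of 20 to 49 summed counts. The median over all leaders stayed at 2.27 with leaders at 0 set to their bound.

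The 41 leaders that were not higher in the eIF3b-bound library were mostly thinly covered, and 15 of them were lower beyond counting error. Their median summed count was 28, against 80 over all 2407, and 31 of the 41 had fewer than 50. They made up 3.88% of the class of 20 to 49 counts, and from 0.422% to 1.15% of the 4 higher classes. Together they held 2497 leader counts in 40S 1, 2.72% of its leader footprints, and 870 in the eIF3b-bound library, 0.181%. At least 2-fold lower were 16 (0.665% of leaders, against 30.8% of all areas). The number not higher depended on the totals: it was 84 without the 10 genes fullest in 40S 1 and 125 with totals of leaders and coding sequences only.

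WDR74 was the fullest of them (943 leader counts in 40S 1, 227 eIF3b-bound, log2 ratio -2.24, interval -2.45 to -2.03). The rest of the gene had few counts: its coding sequence had 28 unselected and 38 eIF3b-bound footprints, and its start codon area 12 and 26. In RefSeq the WDR74 gene spans chr11:62832905-62841809 on the minus strand, so its 5′ end is at 62841809. The 191-base small nuclear RNA gene RNU2-2, a U2 gene of the spliceosome, spans chr11:62841619-62841809 and ends at the same base. Whether the WDR74 leader counts are reads of RNU2-2 was not tested. Over the 1993 members with a RefSeq span and strand, 19 (0.953%) had an annotated small RNA within the first 1000 bases, and their median ratio was 1.91, against 2.28 for the rest. Of the 30 leaders among them that were not higher, WDR74 was the only one with such a gene. The 19 ran from -2.24 in WDR74 to 4.63 in CREB3, which has MIR6853 there, and 3 of them were under 2-fold. SNHG32, with SNORD48, had 0.07, and RPS12, with SNORD101, 1.38. RPL3, with SNORD43, had 3.31 on 39 eIF3b-bound and 3 unselected counts, and PPP2CA, with MIR3661, 3.32 on 902 and 79.

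SLC29A4, a transporter of monoamines and nucleosides, had the lowest ratio among leaders with at least 50 counts, with 208 unselected and 14 eIF3b-bound counts (-4.03, interval -4.97 to -3.30). AQP3, a water and glycerol channel, had 74 and 5 (-3.94, interval -5.74 to -2.78). Neither gene had many footprints elsewhere: the leader took 92% of the 40S 1 footprints of SLC29A4 and 100% of those of AQP3. The leader took more than 50% of the 40S 1 footprints in 16 of the 41 genes (39.0%), against 209 of the 2366 other member genes (8.83%). This share uses the same 40S 1 leader counts as the ratio, so the difference is no independent property of the 41.

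The other leaders lower beyond counting error were 4 without a symbol and 8 named genes. Counts in 40S 1 are given first: ENSG00000269028 had 244 and 54 (-2.35), ENSG00000266086 172 and 40 (-2.27), ENSG00000255823 156 and 52 (-1.76) and ENSG00000255633 25 and 0. Identifiers without a symbol thus made up 5 of the 41 (12.2%), the fifth being ENSG00000205246 with 71 and 62 (-0.38), against 1.12% of all leaders. The named genes, given here after their values were seen, had 17 to 33 counts in 40S 1. CEBPD, a transcription factor of the C/EBP family, had 31 and 1, CST8, a cystatin, 21 and 1, and ANHX, a homeobox gene, 27 and 2. ESPL1, the separase that opens sister chromatids, had 17 and 6 (-1.61), VAMP4, a vesicle SNARE, 18 and 5 (-1.93) and ZNF512B 19 and 5 (-2.01). AHSA2P had 33 and 11 (-1.73) and ANKRD34A 19 and 6 (-1.77).

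The remaining 26 leaders had intervals that held equal CPM. In the same order of libraries, PNMA6A had 54 and 47 counts (-0.38), RNF2, a Polycomb ubiquitin ligase, 30 and 31 (-0.14), and SLC13A4, a sulfate transporter, 28 and 26 (-0.29). At this depth they cannot be told from equal representation. Where other areas of the 41 genes were measured, the start codon area was higher in the eIF3b-bound library in 6 of 6 and the coding sequence in 4 of 14, with median log2 ratios of 0.94 and -1.27. Over all member genes, 6.56% of start codon areas and 73.5% of coding sequences were not higher, so these counts are near the background. Genes named ZNF or ZFP, mostly zinc finger transcription factors, were 7 of the 41 (17.1%) and 55 of all 2407 (2.29%). The ZNF leaders as a list had a median summed count of 45.

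Gene lists are set against the median leader, whose log2 ratio of 2.27 already lies far above equal CPM. Over all leaders, 353 (14.7%) lay at least 2-fold above the median leader and 308 (12.8%) at least 2-fold below it, and intervals excluded it for 371 above (15.4%) and 405 below (16.8%). Every one of 18 lists had a median between 1.81 and 3.21, each above equal CPM by library totals. In the pairs of counts below, eIF3b-bound comes first.

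The eIF3 subunits had the highest median of the lists at the minimum used here, but not at a minimum of 10 counts. There their median was 2.89 over 6 leaders, below 2.92 over 10 replication-dependent histones. The other initiation factors lay on both sides of the median leader. The 5 measured eIF3 subunits had a median of 3.21, with 4 above the median leader, 3 of them beyond counting error and 0 below beyond it. EIF3C, which has a near-identical copy, had 180 and 43 counts (1.87), EIF3A, a core scaffold subunit, 152 and 22 (2.58), EIF3M 110 and 10 (3.21), EIF3G, an RNA-binding subunit, 70 and 4 (3.79) and EIF3I 51 and 2 (4.18, interval 2.56 to 7.57). The list of other initiation factors, 13 genes, had a median of 2.59, with 8 above the median leader, 3 of them beyond counting error, and 5 below it, 0 beyond counting error. EIF1AX (1367 and 188, 2.67), EIF5 (915 and 172, 2.22), EIF4A3 and ABCE1, a ribosome recycling factor (544 and 103, 2.21), were the fullest. The list is thus broader than its name, since EIF4A3, 1 of the 3 above beyond counting error, is described above as an exon junction complex helicase. EIF4B is counted both here and among the elongation factors and other TOP mRNAs, and HNRNPA1 both among those and among the hnRNP and SR proteins. With a minimum of 50 counts, 5 of the other initiation factors lay above the median leader and 5 below.

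Ribosomal protein leaders were low among leaders. Their median over 31 measured genes was 1.86, and 26 lay below the median leader, 18 of them beyond counting error. The other 5 lay above it, 1 of them beyond counting error. RPLP2, an acidic stalk protein, had 2338 and 566 counts (1.86), RPS12 2004 and 679 (1.38), RPL13 1980 and 501 (1.80) and RPLP0, the base of the stalk, 1535 and 592 (1.19). The lowest was RPSA at 0.03, and 29 of the 31 were at least 2-fold higher in the eIF3b-bound library. With each gene's coding sequence as the reference, 18 of 30 lay below the median leader. Reads of these genes can be shared with near-identical pseudogenes. Mitochondrial ribosomal proteins, which are made in the cytosol for the ribosomes of mitochondria, had a median of 2.28 over 22 genes, at the median leader, with MRPS21 at 1.87 and MRPL3 at 2.71.

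The 6 measured elongation factors and other TOP mRNAs had a median of 1.92, with 3 below the median leader beyond counting error and 0 above, but all 6 lay above it when the coding sequence of each gene was the reference. NACA, a subunit of the nascent polypeptide-associated complex, had 1567 and 278 counts (2.31), its partner BTF3 1377 and 341 (1.83), HNRNPA1 1038 and 227 (2.01) and EEF1B2, an elongation factor subunit, 781 and 215 (1.67). The oxidative phosphorylation genes of the nucleus, 29 leaders, had a median of 2.02, 22 of them below the median leader and 9 beyond counting error, with UQCRH at 2.18, ATP5MC3 at 2.97, COX7B at 1.69 and ATP5MK at 2.21.

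Histone leaders were high by library totals and not by their own coding sequences. All 9 measured replication-dependent histones, of 60 in the table, lay above the median leader, 5 of them beyond counting error, with a median of 3.07; with each gene's coding sequence as the reference 5 of the 9 lay below it. H2AC6 had 1603 and 206 counts (2.77), H2AC25 634 and 103 (2.43), H4C15 558 and 87 (2.49) and H4C16 228 and 38 (2.39). These genes have near-identical copies, among which reads can be split. Ubiquitin-conjugating enzymes had a median of 2.62 over 10 leaders, with UBE2D2 (1302 and 173, 2.72), UBE2K (2.59), UBE2T (2.48) and UBE2J1 (2.15).

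Leaders of RNA-binding proteins and chaperones spread to both sides of the median leader. Among 24 hnRNP and SR proteins (median 2.49), 9 lay above it beyond counting error and 3 below, with HNRNPD (2103 and 261, 2.82), HNRNPAB (1963 and 216), SRSF2 (2.40) and HNRNPU (2.84) the fullest. Among 23 chaperones (median 2.48) it was 7 above and 5 below, HSPA8, the constitutive Hsp70, having 2.20. The 20 cytoskeletal leaders (median 2.13) had 4 above and 7 below, and PFN1, which binds actin monomers, had 3078 and 355 counts (2.93). The 20 splicing snRNP proteins had a median of 2.31, with SF3B6 at 2.02, SNRNP70 at 2.52, SNRPA at 2.30 and LSM2 at 2.39.

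The list of stress mRNAs with upstream open reading frames, 9 leaders, had a median of 2.07, with 2 below the median leader beyond counting error and 1 above. Its members were taken by gene name, and such frames were not looked up here, so the list may be broader than its name. ATF4 is given above, and IBTK, whose leader has upstream open reading frames, had 89 and 48 counts (0.70, interval 0.18 to 1.24). ODC1 and AZIN1, which make and regulate polyamine synthesis, had 703 and 147 (2.07) and 527 and 98 (2.24). The highest of the list was AARS1, alanyl-tRNA synthetase, with 83 and 5 (3.74, interval 2.59 to 5.53). The 11 immediate early and similar transcription factors had a median of 2.39, with JUN at 2.40, SOX4 at 2.39, ID4 at 2.69 and ID2 at 2.27.

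The 27 cell cycle and replication genes had a median of 2.38 and the 12 proteasome subunits one of 2.20. PCNA, the sliding clamp of DNA replication, had 1645 and 274 leader counts (2.40), RRM1, a ribonucleotide reductase subunit, had 2.25, MCM7, a replicative helicase subunit, 1.58 and TYMS, thymidylate synthase, 3.15. PSMB2 had 2.40, PSMD14 2.30, PSMA1 2.01 and PSMB1 2.10. The 52 ZNF leaders had a median of 1.81, the lowest of the lists at the minimum of 20 counts but not at 50, where it was 1.92 against 1.84 for ribosomal proteins and 1.83 for elongation factors and other TOP mRNAs. Of the 52, there were 13 below the median leader beyond counting error, 4 above it and 5 not higher in the eIF3b-bound library. The fullest, ZNF503, had 2.79, ZNF146 1.69, ZNF428 2.36 and ZNF330 2.68. The 39 solute carriers had a median of 2.37, with SLC25A5, an ADP/ATP carrier, at 2.50, SLC16A1, a lactate transporter, at 1.86, SLC25A6 at 1.74, SLC25A39 at 2.07 and 3 not higher.

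**Figure D5:**
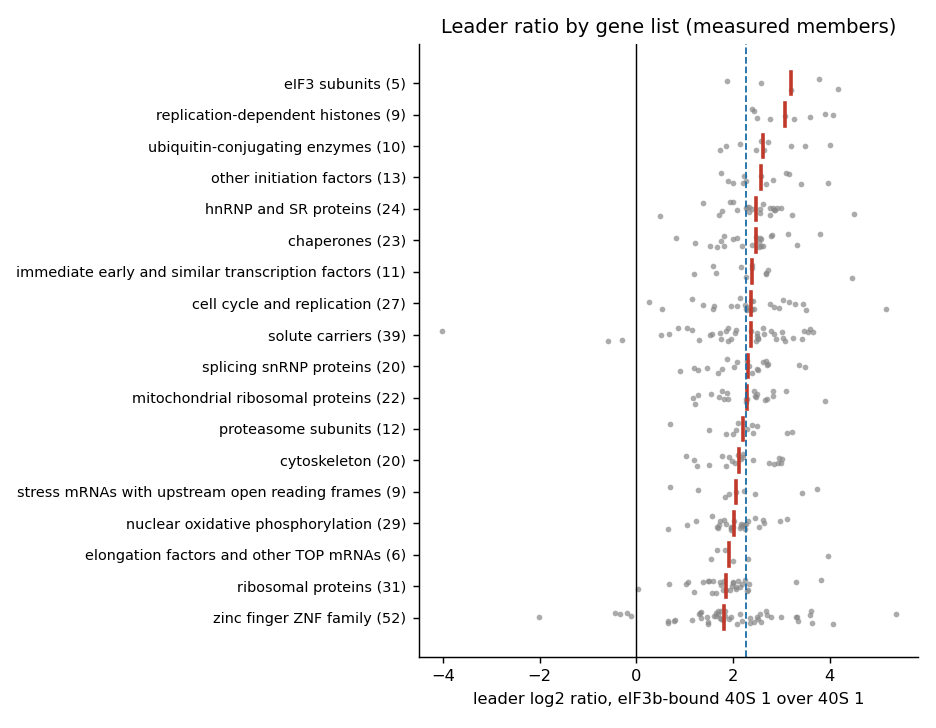
Leader log2 ratio (x axis, eIF3b-bound 40S 1 over 40S 1) of the measured members of 18 gene lists (y axis, number of measured leaders in parentheses), with 1 grey point per gene and a red bar at each median. The dashed line is the median leader; eIF3 subunits and histones (the latter not with their own coding sequences as the reference) lie to its right, at medians of 3.21 and 3.07, and ribosomal proteins and ZNF genes to its left, at 1.86 and 1.81.

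Features of the first 50 bases from the RefSeq start went with small differences only. They were read for the 1543 leaders whose gene has a single listed start, and they can run past a short first exon. A start with C followed by 4 bases that are each C or T, the form of a TOP tract, was present in 99 of these (6.42%, against 3.98% of all 22114 genes with a single listed start). The median ratio was 2.12 with it and 2.29 without. The letters ATG on the transcript strand occurred in 330 (21.4%, against 42.1%), with medians of 2.24 with them and 2.29 without. GC content had a median of 68%, against 60% over all such genes, and quartiles of it from low to high had median ratios of 2.17, 2.37, 2.31 and 2.36. The 22114 genes were not limited to the 9675 genes with deposited counts, so they are an unlike background. Differences of the members from them cannot be read as a property of leaders with footprints. The quartiles of the ratio were 1.63 and 2.63 with the TOP form and 1.73 and 2.83 without it, so the groups overlapped widely. RPSA and RPS12, printed above as TOP leaders with low ratios, have tracts of 7 and 10 pyrimidines. They lay at 0.03 and 1.38, below the lower quartile of the leaders that share this start, and do not stand for that group. PTMA, also printed above, has the same form of start and lay at 1.97.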

How the data were processed

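The authors deposited whole-number counts of footprints for eIF3b-bound 40S 1 and 40S 1, split over the leader, the start codon, the coding sequence, the stop codon and the 3′ UTR of each gene, per the file headers. Build GRCh38 and the tools TopHat2 2.1.0, Bowtie2 2.2.6, Bowtie 1.2.2 and CASAVA 1.8 are named in the submitters' processing notes. The tools' roles, strand use and the treatment of multi-mapping reads were not given in the sources used here. Gene counts of other libraries were not used here, and 0 columns of the table were left unmapped.

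From the counts, CPM over all areas and log2 ratios with a prior count of 0.5 were computed with Python 3.11.15 (numpy 2.4.6, pandas 2.3.3), and exact Clopper-Pearson intervals at 95% with scipy 1.17.1. Without molecular identifiers reads cannot be counted as independent molecules, so intervals and the limit of 3 counts for a library at 0 cover counting error only. With 1 library a side no test was run, and a call is a fold of at least 2 or an interval. The steps were checked on simulated data.

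The members, the 18 gene lists and the rules were chosen with earlier results of these data known. The text names the 10 leaders with the highest and the 10 with the lowest ratio among those of 50 counts or more, the 10 fullest leaders in each library, the 10 fullest that were not higher, and up to 4 fullest members per list; others are said to be named after their values were seen, or illustrate a group. Symbols come from the gene table, and spans, starts and sequences from RefSeq (GRCh38.p14). Leader lengths were not analysed here. Alternatives changed the library totals, the prior count, the minimum and the identifiers.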

Additional observations from a re-analysis of the deposited data

How the results depend on the processing

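Library totals moved the ratio of all leaders together and left its interquartile range at 1.12. Without the 10 genes fullest in 40S 1 the median was 1.81 and 84 leaders were not higher; with totals of leaders and coding sequences only it was 1.61, and 125 were not higher. With leader totals only, which centre the ratio by construction, the median was 0.071, 378 leaders were at least 2-fold higher and 1116 were not higher. With each gene's coding sequence as the reference, in 1767 genes, the median was 3.10 and the range 1.91, with 1607 at least 2-fold higher. A prior count of 2 gave a median of 2.16, a range of 1.04 and a difference of 0.51 between the highest and lowest count class, which was 0.16 between quartiles of the other areas' counts. A minimum of 10 gave 2.25, 1.27 and 90 leaders not higher of 2961; a minimum of 50 gave 2.31, 0.93 and 10 of 1609. The 10 fullest leaders held 5.22% of the eIF3b-bound library and 1.15% of 40S 1, and those fullest in the other library held 8.76% and 9.42% of leader counts. Leaving out identifiers without a symbol gave 36 leaders not higher and left the median, the range, the number at least 2-fold higher and the shares of the 10 fullest within counting error or 1.5 times. Changes of the library totals shift all leaders alike and cannot move a list against the median leader. With the coding sequence as the reference, the medians of the histones, the elongation factors and other TOP mRNAs, the cytoskeletal, the immediate early, the splicing snRNP and the mitochondrial ribosomal lists changed sides of it. The solute carriers did so with a prior count of 2 and with either other minimum, the proteasome at a minimum of 10, and the mitochondrial ribosomal and snRNP lists, which lie close to it, at 50. Leaders under 50 counts carry most of the extreme ratios, so their order is not resolved. No paired analysis was possible because gene counts of only 1 library a side were used.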
